A study of Danio rerio with 12 samples.

Results

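ZKS cells, a stromal population of the zebrafish kidney, were compared with sinusoids, the thin-walled vessels of that organ, in 4 of the 12 Quartz-seq libraries of a study on the cells around blood stem cells. The 4 libraries were chosen by their titles: 2 of ZKS cells and 2 of sinusoids, the latter titled by a high signal for acetylated low-density lipoprotein (Ac-LDL), a ligand taken up by scavenger receptors. All came from adult wild-type zebrafish, with cells sorted from the kidney and no treatment named. A stromal line grown from zebrafish kidney carries the name ZKS too, and the labels leave unsaid whether these ZKS cells had been in culture. No label ties a replicate to its own animal. The p-values therefore rest on the spread among these libraries, part of which may be technical. Another population, pericytes (n = 2, titled by pdgfrb, same age and genotype), served to estimate the spread and is otherwise quoted as context.

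In fish the kidney is the adult blood-forming organ, and blood stem cells lie there among stromal cells and sinusoids. Sinusoidal endothelium lines slow-flowing vessels and clears waste macromolecules through scavenger receptors, which it passes to lysosomes. Stromal cells lay down the extracellular matrix and, together with endothelium, supply the ligands that hold, feed or divide blood stem cells, among them Cxcl12, Kit ligand, Notch ligands and Csf1.

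Depth, estimated from the step in CPM that 1 read makes, was 9260875 and 9880731 reads in ZKS cells and 13372165 and 16242053 in sinusoids. The estimate for ZKS replicate 2 is less certain, since its step is close to the rounding of the values. The libraries had 15545 to 20626 genes above 0. The correlation of log2 values, taken across genes that are not independent of each other, was 0.981 between ZKS replicates and 0.907 between sinusoid replicates. Over the genes tested, 9 lay over 4-fold apart between the ZKS replicates and 1134 between the sinusoid replicates. Levels are in CPM, reads of a gene as a share of the library, with no division by gene length, so a level is compared between libraries and never between genes.

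The sort labels were read against marker genes first. The 9 identifiers of the endothelial marker set together reached 81.7 and 72.8 CPM in ZKS cells, and 21245 and 17695 CPM in sinusoids. Of the ZKS sums, kdrl, a receptor of vascular endothelial growth factor, gave 78.9 and 70.7 CPM, against 2950 and 2863 CPM in sinusoids. The junction gene cdh5 and the receptor genes TIE1 and lyve1b were at 0 in both ZKS libraries. The sum of the 9 stromal marker identifiers was 1712 and 1523 CPM in ZKS cells, against 56.5 and 38.9 CPM in sinusoids. In pericytes it was 10773 and 11361 CPM. PRRX1 (ENSDARG00000033971) gave 1077 and 943 CPM of the ZKS sums, the most of these 9 identifiers. Not all of the 9 followed the ZKS label. PDGFRA, a receptor of many fibroblasts, stood at 20.6 and 9.31 CPM in ZKS cells and at 13.8 and 25.1 CPM in sinusoids. Its groups overlapped (limma log2 change of -0.67 ± 0.48, adjusted p = 0.308), while pericytes held 439 and 422 CPM. LUM did not pass the test (12.7 and 9.01 CPM against 3.74 and 0.12 CPM, limma adjusted p = 0.0562). The second PRRX1 identifier (ENSDARG00000042027), at 0.65 and 0.2 CPM in ZKS cells and 0 in both sinusoid libraries, was too low to be tested. In pericytes it was at 19.4 and 22.3 CPM. The rest of the 9 were called higher in ZKS cells.

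Blood cell markers were near 0 in ZKS cells and present in sinusoids. The erythroid set summed to 0.33 and 1.42 CPM in ZKS cells against 1943 and 696 CPM in sinusoids. The macrophage set summed to 1.09 and 1.71 CPM against 436 and 605 CPM, and the lymphoid set to 0.86 and 1.21 CPM against 232 and 202 CPM. The neutrophil set, of only 2 identifiers, summed to 0.32 and 1.62 CPM against 1695 and 117 CPM. Nearly all of it was npsn, at 1693 and 117 CPM in sinusoids. The thrombocyte set was at 0 in both ZKS libraries against 68.1 and 23.8 CPM. The part of these cells' transcripts in the differences described for blood and immune genes was not tested.

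Sinusoid replicate 1 stood apart from its partner. A set of 32 oocyte and germ cell genes, chosen after the values were seen and given no test, summed to 1612 CPM in sinusoid replicate 1, 42.0 CPM in sinusoid replicate 2, and 19.8 and 18.4 CPM in ZKS cells. In that library 22 of the 32 reached 5 CPM, against 1 in each of the other 3 libraries. The stem cell factor nanog was at 131 CPM there and at 0 in the other 3, the oocyte organiser buc at 130 CPM against 0.25 CPM in replicate 2, the linker histone h1m at 188 CPM against 2.65 CPM, and the egg coat gene zp3 at 111 CPM against 1.85 CPM. The renal tubule markers summed to 571 CPM in sinusoid replicate 1 and to 1.84 CPM in replicate 2, and the tubule cadherin CDH17 alone was at 366 and 0.12 CPM. Among the genes tested, 1070 were over 4-fold higher in sinusoid replicate 1 than in replicate 2 and 64 the other way. For the cell cycle and tubule lists, results are given below with and without this library. It was also above replicate 2 in 18 of the 19 tested erythroid genes. The median log2 change of the erythroid list (ZKS cells minus sinusoids) went from -2.56 to -1.72 without sinusoid replicate 1, and to -3.39 without replicate 2. That of the thrombocyte and progenitor list went from -2.58 to -1.59 and -3.66.

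**Figure D1:**
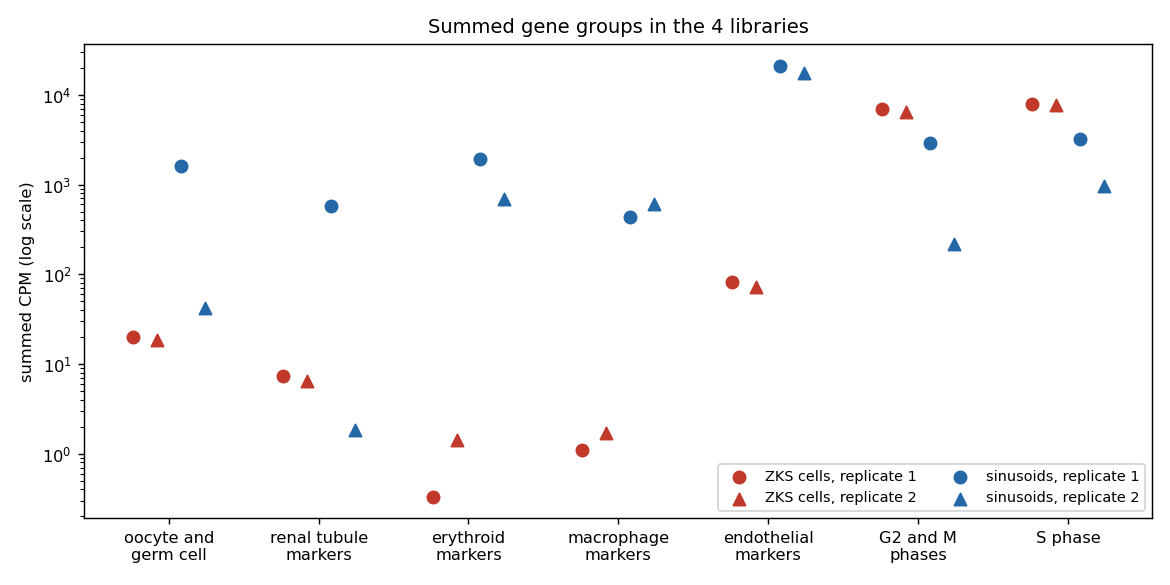
Summed CPM of 7 gene groups (log scale) in the 4 libraries, with 1 point per library. Oocyte and germ cell genes were at 1612 CPM in sinusoid replicate 1 and 42.0 CPM in replicate 2, while the endothelial markers were at 21245 and 17695 CPM.

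Of 13651 genes at 1 CPM or more in at least 2 of the 4 libraries, 5402 differed between ZKS cells and sinusoids (39.6%) by limma on log2(CPM + 1), at a Benjamini-Hochberg adjusted p under 0.05 over the whole table. ZKS cells were higher for 2369 genes (17.4%) and lower for 3033 (22.2%). The median log2 change of all genes tested was 0.00365, and the middle of the distribution ran from -1.27 to 1.03. Without TMM scaling, on CPM as deposited, the median was 0.236, and the calls were 2934 higher and 2767 lower. Fewer genes were called without either ZKS library. Those fits took the spread from pericytes and sinusoids alone, with 793 and 1134 genes over 4-fold apart between replicates. Calls lost there, here and in the lists below, therefore do not by themselves show that a result rests on 1 ZKS library. Without ZKS replicates 1 and 2, the median log2 change of general endothelial genes went from -5.75 to -5.76 and -5.92. That of cholesterol synthesis genes went from 3.91 to 3.95 and 3.91. Without sinusoid replicate 1 there were 4893 calls and without sinusoid replicate 2 3953. Each log2 change is ZKS cells minus sinusoids with its SE, and for genes at low levels the added 1 CPM makes it smaller than the true ratio. In bulk RNA of sorted cells, fewer cells of a type and less RNA per cell cannot be told apart.

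The differences reached the extremes of the scale in both directions. In 10349 of the 13651 genes tested the groups did not overlap, so a gap between the groups was common. Among called genes 17 lay above a log2 change of 8 and 62 below -8. Of 822 tested genes at 0 in both ZKS libraries, 754 were called lower. Of 225 at 0 in both sinusoid libraries, 198 were called higher. Such a gene passed the filter only through the other group, so a difference was fixed in advance.

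**Figure D2:**
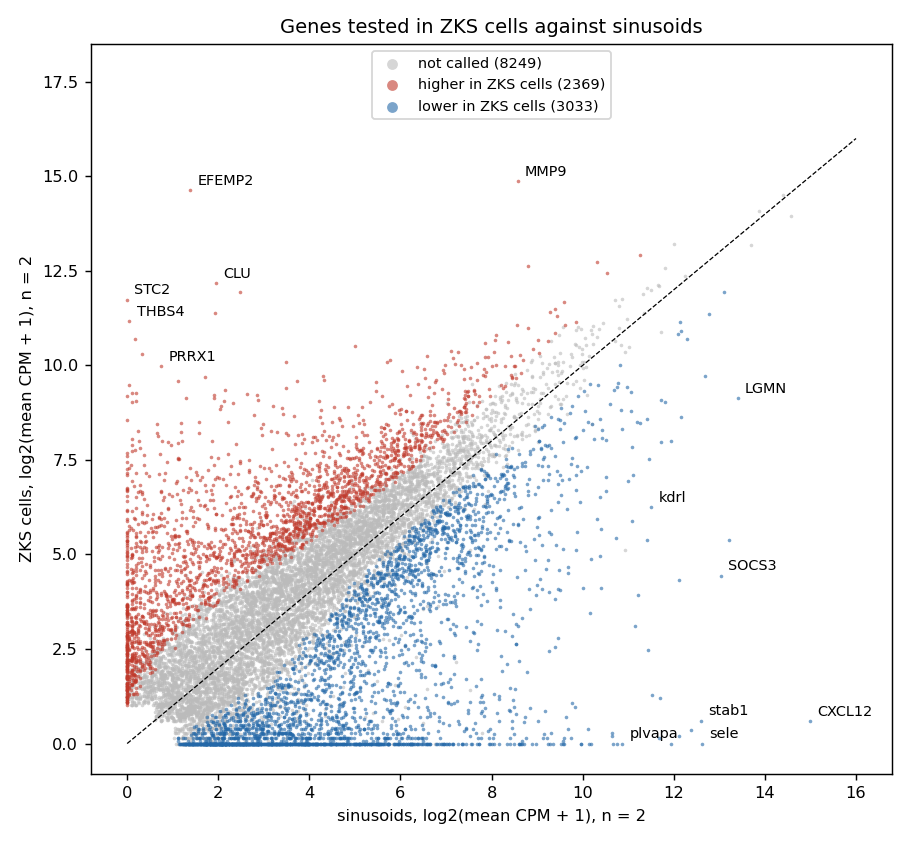
Mean levels of the 13651 tested genes in sinusoids (x axis) and ZKS cells (y axis), as log2(mean CPM + 1), with 2369 genes called higher in ZKS cells in red and 3033 called lower in blue. The dashed line marks equal levels, and EFEMP2 and CXCL12 lie farthest from it on either side.

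The 15 largest increases were mostly genes of secreted and matrix proteins. EFEMP2 (ENSDARG00000094324), a fibulin that organises elastic fibres, was at 27028 and 23545 CPM in ZKS cells and at 2.92 and 0.31 CPM in sinusoids. Both ZKS libraries lay far above both sinusoid libraries, with a log2 change of 13.20 ± 0.47 (limma adjusted p = 7.65e-06), the largest increase among symbol-bearing genes whose groups did not overlap. STC2 (ENSDARG00000056680), a stanniocalcin that in mammals acts on calcium and phosphate handling and on the protease Pappa, was at 3460 and 3355 CPM against 0 in both sinusoid libraries. This was at least 15190-fold higher against a floor of 3 reads per library. PAPPA2, itself a pappalysin that cleaves binding proteins of insulin-like growth factor, was at 1295 and 1232 CPM against 0.52 and 0 CPM (9.74 ± 0.43). CLU, the secreted chaperone clusterin, stood at 4266 and 4933 CPM against 3.37 and 2.4 CPM (9.93 ± 0.24). The 15 genes were taken only from called genes whose groups did not overlap, so the gap between groups was set by that choice. Others of the 15 were THBS4, ITGA10, BMPER, PRRX1, cntfr, htr1aa, HHATL, FGFR3, EVA1B and DLX3, with log2 changes from 8.48 to 10.83. Of these, htr1aa, which encodes a serotonin receptor, was at 495 and 666 CPM in ZKS cells and at 0 in both sinusoid and both pericyte libraries.

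The 15 largest decreases were led by CXCL12 and by receptors of sinusoidal endothelium. They also held 2 genes of red cells or unnamed function, HBE1 (ENSDARG00000089087), a globin, and si:ch211-5k11.8, at 2113 and 1075 CPM and at 2199 and 1002 CPM in sinusoids and at or below 0.43 CPM in ZKS cells. The remaining members were sele, stab1, MRC1, mrc1b, tnfaip2b, LOXL1, plvapa, dab2, GPR182, il13ra2, stab2 and FLT4, with log2 changes from -12.61 to -10.12.

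The gene lists held 2007 identifiers in 39 lists, of which 1291 passed the filter on low values. A member that passed only through the group where it is high had to differ, so the counts that follow describe the tested members and are set against the 17.4% and 22.2% called over all genes.

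Several scavenger and adhesion receptors of sinusoids were near or at 0 in ZKS cells. The scavenger receptor gene stab1 (ENSDARG00000076484), which takes up modified lipoproteins and hyaluronan, was at 0.43 and 0.61 CPM in ZKS cells and at 6992 and 5436 CPM in sinusoids. The groups were far apart (-12.07 ± 0.41, limma adjusted p = 7.65e-06). Its relative stab2 was at 1.84 and 1.01 CPM against 2352 and 3484 CPM (-10.38 ± 0.61), and the mannose receptor genes MRC1 and mrc1b, which bind sugars on glycoproteins, changed by -12.06 ± 0.36 and -11.95 ± 0.53. The leukocyte adhesion gene sele, an E-selectin, was at 0 in both ZKS libraries and at 5761 and 6818 CPM in sinusoids. Against the floor it was at least 19410-fold lower in ZKS cells. The scavenger receptor gene SCARB1, which binds high-density lipoprotein in mammals, was at 30.7 and 22.5 CPM against 158 and 32.45 CPM and did not pass the test (-1.69 ± 0.59, limma adjusted p = 0.0536). Of 33 tested sinusoidal and venous genes (41 measured), 24 were lower and 4 higher, with a median log2 change of -4.98. One of the 4, NRP2 (ENSDARG00000096546), a co-receptor of semaphorins and growth factors, was at 307 and 301 CPM in ZKS cells against 0.37 and 0 CPM. Without ZKS replicate 1, ZKS replicate 2 or sinusoid replicate 2 there were 2 higher.

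General endothelial genes were lower in ZKS cells as well. Of 43 tested (50 measured), 38 were lower in ZKS cells and 1 higher, and 19 of those measured were at 0 in both ZKS libraries. The median log2 change was -5.75. The cadherin gene cdh5, which joins endothelial cells, was at 0 in both ZKS libraries and at 795 and 685 CPM in sinusoids. The tight junction gene CLDN5 (ENSDARG00000014059) was at 0 against 747 and 771 CPM, the lymphatic and venous receptor gene FLT4 at 0 against 1065 and 1181 CPM, and the diaphragm gene plvapa at 0 against 1573 and 2165 CPM. None of these 4 had a read in ZKS cells. DUSP5, a phosphatase of Erk, was the 1 member called higher (63.4 and 60.5 CPM against 2.39 and 6.16 CPM, 3.37 ± 0.52). Of 17 tested arterial genes (28 measured), 13 were lower and 3 higher (median -4.62).

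Genes of endocytic traffic and the lysosome were lower in ZKS cells in part. The clathrin adaptor gene dab2 (ENSDARG00000031761) was at 0 in both ZKS libraries and at 1878 and 1580 CPM in sinusoids. LGMN, a lysosomal protease, was at 565 and 550 CPM against 9841 and 11801 CPM, lower in both ZKS libraries (-4.56 ± 0.31, limma adjusted p = 7.02e-05). Of 66 tested genes of lysosome and endocytic traffic (74 measured), 28 were lower and 4 higher, with a median of -1.03. Those higher included CLTC, the clathrin heavy chain (1094 and 942 CPM against 288 and 224 CPM, 1.71 ± 0.27), whose call ended without ZKS replicate 1 (adjusted p = 0.0552). Without ZKS replicates 1 and 2 the median of the list went from -1.03 to -1.08 and -1.04. It moved more with the sinusoid libraries, to -1.45 without sinusoid replicate 1 and to -0.82 without sinusoid replicate 2.

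Genes of clotting control and complement followed the endothelial ones. Of 28 tested coagulation genes (51 measured), 19 were lower and 3 higher (median -2.83), and of 21 tested complement genes (36 measured) 11 were lower and 2 higher (median -1.96). The clotting factor gene vwf, stored by endothelium, was at 0.22 and 2.02 CPM in ZKS cells and at 961 and 786 CPM in sinusoids. The thrombin receptor gene F2R (ENSDARG00000060012) was at 0 against 308 and 489 CPM, and GAS6, the bridging ligand for clearance of dying cells, at 13.8 and 18.7 CPM against 1465 and 1244 CPM. All 3 were lower in both ZKS libraries. SERPINE2, a protease inhibitor, went the other way, at 1152 and 1023 CPM against 74.6 and 28.1 CPM (4.25 ± 0.35). With either ZKS library left out, 8 and 9 coagulation genes and 4 and 4 complement genes were lower.

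**Figure D3:**
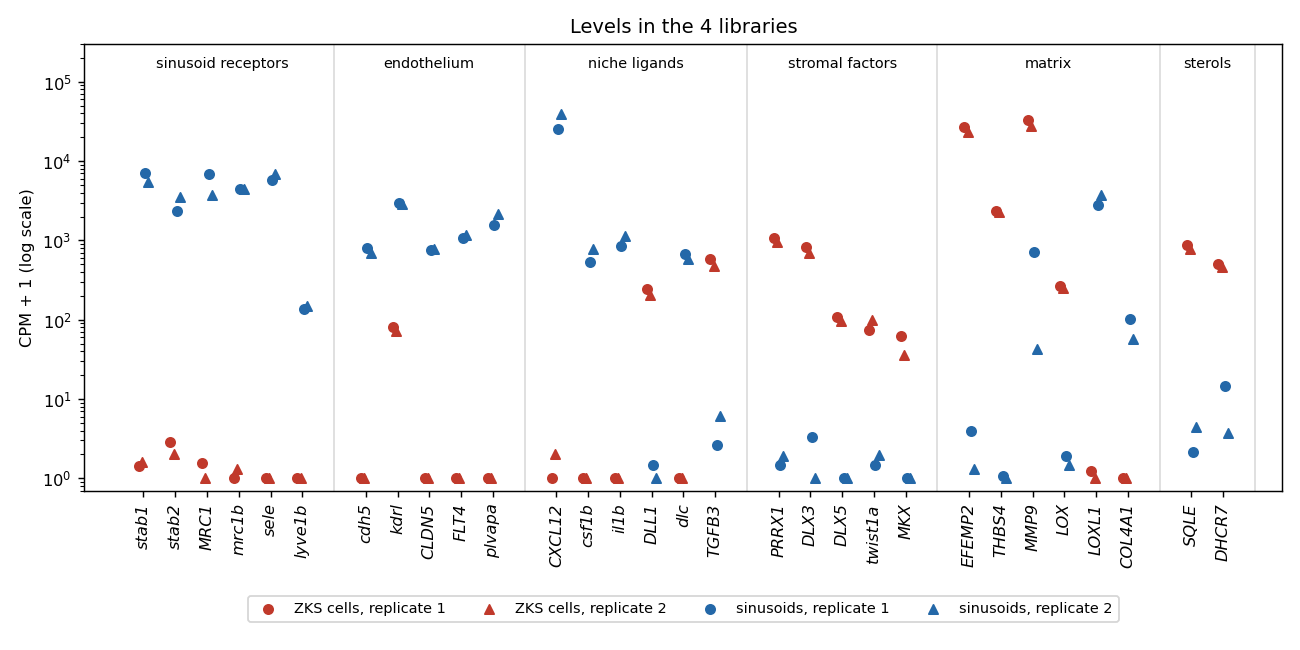
Levels of 30 named genes in each of the 4 libraries, as CPM + 1 on a log scale, grouped by role, with ZKS cells in red and sinusoids in blue. For every gene plotted both ZKS libraries lie on the same side of both sinusoid libraries, as in 10349 of all 13651 genes tested. The genes were chosen from those named, and cdh5, CLDN5, FLT4 and plvapa are at 0 CPM in both ZKS libraries.

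Ligands of the blood stem cell niche split between the populations. CXCL12 (ENSDARG00000037116), the chemokine that holds blood stem cells in place, was at 0 and 1.01 CPM in ZKS cells and at 25164 and 39651 CPM in sinusoids. This was the largest decrease of the named genes (-14.50 ± 0.42, limma adjusted p = 5.93e-06). The macrophage growth factor gene csf1b was at 0 in both ZKS libraries against 529 and 769 CPM. In the other direction, TGFB3, a ligand of the TGF-beta family, was at 576 and 480 CPM in ZKS cells against 1.65 and 5.05 CPM (6.73 ± 0.46). The sialoprotein gene spp1 was at 64.2 and 55.5 CPM against 1.35 and 0 CPM (5.07 ± 0.67). Of 45 tested niche factors (78 measured), 21 were higher and 13 lower in ZKS cells, with a median of 1.53. The macrophage cytokine gene il34 lay within the spread, at 92.4 and 97.6 CPM against 62.7 and 106 CPM. For 2 further ligands, named after their values were seen, kitlga was at 30.4 and 22.5 CPM against 5.31 and 4.49 CPM (1.93 ± 0.41, adjusted p = 0.00896, which rose to 0.113 and 0.0765 without ZKS replicates 1 and 2) and thpo at 0 in both ZKS libraries against 6.81 and 11.8 CPM (-3.32 ± 0.49).

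Notch ligands were divided by gene. In Notch signalling, ligands of the Delta and Jagged families on 1 cell activate receptors on its neighbour. DLL1 (ENSDARG00000020219) was at 243 and 201.2 CPM in ZKS cells and at 0.45 and 0 CPM in sinusoids, so that it lay in ZKS cells (7.26 ± 0.52). The ligand genes dlc and dll4 had the reverse pattern, with dlc at 0 in both ZKS libraries against 671 and 577 CPM and dll4 at 0.43 and 0.61 CPM against 321 and 374 CPM. The Fringe enzymes LFNG and mfng, which tune the response of Notch to its ligands, changed by -6.79 ± 0.57 and -6.53 ± 0.62. Of the receptors, NOTCH3, known from mural cells, was at 52.4 and 52.6 CPM against 2.92 and 0.55 CPM (4.19 ± 0.43), while notch2 and the DNA-binding partner RBPJ (ENSDARG00000003398) did not pass the test (0.52 ± 0.31 and 0.24 ± 0.32). Of 20 tested members (33 measured), 5 were higher and 9 lower.

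Wnt, BMP and growth factor genes leaned towards ZKS cells. Of 27 tested Wnt ligands, receptors and modulators (71 measured), 12 were higher and 2 lower (median 0.932). WIF1, a secreted Wnt inhibitor, was at 216 and 218 CPM in ZKS cells and at 0 and 0.25 CPM in sinusoids, and the ligand gene WNT7B at 109 and 100 CPM against 0 in both. The receptor gene FZD1 was at 196 and 168 CPM against 0.75 and 1.66 CPM (6.09 ± 0.76). Thus a ligand, a receptor and an inhibitor of the pathway were all higher in ZKS cells. The 2 lower members were the receptors FZD5 and FZD8 (ENSDARG00000045444), at log2 changes of -3.81 ± 0.66 and -3.39 ± 0.63, both of which lost their call without either ZKS library (limma adjusted p from 0.0619 to 0.0781), leaving 0 lower. A fit of the 4 libraries alone gave 5 lower, and DESeq2 on recovered reads 6.

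In the BMP and TGF-beta list 20 of 53 tested genes were higher and 11 lower (88 measured, median 1.08), and without either ZKS library 11 were higher and 4 or 3 lower. BMPER, a secreted modulator of BMP, was at 777 and 659 CPM against 0.07 and 0 CPM. The inhibitor gene nog2 was at 168 and 138 CPM and the ligand gene GDF10 (ENSDARG00000073891) at 167 and 218 CPM, both against 0 in the sinusoid libraries. The ligand gene bmp16 was at 0 in both ZKS libraries against 315 and 462 CPM, so ligands of this family lay on both sides. Of 45 tested FGF, PDGF, VEGF and IGF genes (92 measured), 20 were higher and 13 lower. The receptor genes FGFR3 (566 and 472 CPM against 0.15 and 0 CPM), fgfr4 (901 and 796 CPM against 14.4 and 22.7 CPM) and MET (255 and 255 CPM against 5.16 and 0.06 CPM) were higher. PDGFD, a ligand of the PDGF receptors, was at 0 and 0.1 CPM against 352 and 455 CPM (-8.58 ± 0.45), whereas its relative PDGFC was at 165 and 135 CPM against 3.14 and 1.72 CPM (5.20 ± 0.46). Without ZKS replicate 2 the list had 14 higher and 8 lower.

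Many mesenchymal transcription factor genes were detected in ZKS cells and near 0 in sinusoids. PRRX1 (ENSDARG00000033971), a homeobox factor of limb and fin mesenchyme, was at 1077 and 943 CPM in ZKS cells and at 0.45 and 0.92 CPM in sinusoids. Its log2 change was 8.93 ± 0.32 (limma adjusted p = 8.14e-06), with no overlap. The homeobox gene DLX3 was at 836 and 692 CPM against 2.32 and 0 CPM (8.48 ± 0.80), and DLX5, a factor of bone and jaw development, at 106 and 95.1 CPM against 0 in both. The basic helix-loop-helix gene twist1a was at 73.2 and 99.3 CPM against 0.45 and 0.99 CPM, and MKX (ENSDARG00000075450), a tendon factor in mammals, at 60.6 and 34.6 CPM against 0 in both. Of 49 tested stromal transcription factors (101 measured), 31 were higher and 9 lower, with a median of 2.26. The lower ones included foxp1b (-3.42 ± 0.42). Without ZKS replicates 1 and 2 the calls were 19 and 18 higher and 2 and 2 lower, and without sinusoid replicate 2 27 and 5.

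The Hedgehog effector genes GLI1 and GLI3 were also higher (4.21 ± 0.55 and 3.40 ± 0.53), GLI3 without a call when ZKS replicate 2 was left out, while GLI2 (ENSDARG00000025641) did not pass the test (0.50 ± 0.57). Of 22 tested Hox genes (46 measured), 7 were higher and 7 lower. HOXA11 (ENSDARG00000007009), of the posterior end of its cluster, was at 163 and 145 CPM in ZKS cells and at 0.07 and 0 CPM in sinusoids (6.94 ± 0.50), and hoxa9b at 44.3 and 42.8 CPM against 0 and 0.62 CPM. HOXC11 was at 14.7 and 14.0 CPM against 0 in both. The named lower members were HOXB8 and HOXB5 (-3.96 ± 0.71 and -3.38 ± 0.54), which lost their calls without ZKS replicate 1, and without ZKS replicates 1 and 2 the list had 0 and 2 lower and 6 and 4 higher, and without sinusoid replicate 2 3 lower and 6 higher.

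Matrix genes were divided member by member. Of 68 tested glycoproteins and proteoglycans (109 measured), 34 were higher and 19 lower in ZKS cells (median 1.75), and their summed level was 36310 and 32210 CPM against 2990 and 2764 CPM. THBS4 (ENSDARG00000020072), a thrombospondin of tendon and muscle, was at 2352 and 2266 CPM against 0.07 and 0 CPM, and tnn, a tenascin, at 578 and 542 CPM against 2.77 and 0.12 CPM. On the sinusoid side IGFBP7, an endothelial matrix protein, was at 0 in both ZKS libraries against 333 and 382 CPM. Of 23 tested collagen chains (51 measured), 12 were higher and 5 lower. COL5A1 was at 151 and 138 CPM against 3.37 and 0.37 CPM (5.64 ± 0.48), while COL4A1, a chain of the basement membrane under vessels, was at 0 in both ZKS libraries against 101.2 and 55.7 CPM. The basement membrane chain gene col4a5, by contrast, was higher in ZKS cells (179 and 173 CPM against 8.53 and 0.62 CPM, 5.25 ± 0.68). With ZKS replicate 1 or 2 left out, the glycoprotein list had 24 and 24 higher and 10 and 12 lower, and the collagen list 6 and 6 higher and 3 and 3 lower.

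The chains of type I collagen did not move together. COL1A1 (ENSDARG00000035809) was at 14.0 and 13.7 CPM in ZKS cells and at 19.97 and 9.73 CPM in sinusoids, with overlapping groups (-0.28 ± 0.28, limma adjusted p = 0.468), against 8486 and 7778 CPM in pericytes. The other copy, col1a1a (ENSDARG00000012405), was at 105 and 97.4 CPM against 8.82 and 0 CPM (4.82 ± 0.85, limma adjusted p = 0.00414), a call that ended without ZKS replicates 1 and 2 (adjusted p = 0.0652 and 0.0662) and with DESeq2 on recovered reads. COL1A2, the partner chain, was at 261 and 237 CPM against 23.1 and 8.13 CPM (3.79 ± 0.36).

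Cross-linking enzymes separated by member too. Lysyl oxidases join collagen and elastin fibres. LOX was at 261 and 253 CPM in ZKS cells and at 0.9 and 0.49 CPM in sinusoids (6.98 ± 0.30), and LOXL2 at 709 and 584 CPM against 5.91 and 0.99 CPM (7.18 ± 0.51). LOXL1 (ENSDARG00000054451) was at 0.22 and 0 CPM in ZKS cells against 2830 and 3691 CPM (-11.53 ± 0.35). ZKS cells and sinusoids thus carried different members of 1 enzyme family. The transglutaminase gene TGM2 (ENSDARG00000074094) was at 0 in both ZKS libraries against 192 and 336 CPM. Of 34 tested members of the list (39 measured), 16 were higher and 5 lower, and without ZKS replicates 1 and 2 5 and 6 were higher and 3 and 3 lower.

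Among proteases, MMP9 (ENSDARG00000042816), a gelatinase, was at 32561 and 27586 CPM in ZKS cells and at 716 and 41.9 CPM in sinusoids. Both ZKS libraries were above both sinusoid libraries, which were themselves far apart (7.13 ± 1.00, limma adjusted p = 0.00157). The collagenase copy mmp13b was at 172 and 158 CPM against 0.6 and 0 CPM, whereas mmp13a was at 0 in both ZKS libraries against 60.7 and 10.7 CPM. Both MMP9 and mmp13b are also on the neutrophil list, where they made up 2 of its 3 higher calls beside 8 lower calls of 12 tested. The gene npsn, from a neutrophil marker set with only 2 identifiers measured, was at 0.32 and 1.62 CPM in ZKS cells. Whether neutrophils gave part of the MMP9 or mmp13b reads was not tested. ADAM12 (ENSDARG00000079068), a membrane-bound metalloprotease, was at 3.78 and 3.24 CPM against 415 and 362 CPM, and ADAMTS1 at 0.22 and 0 CPM against 69.7 and 86.8 CPM. Of 37 tested proteases and inhibitors (61 measured), 13 were higher and 17 lower, and without ZKS replicates 1 and 2 6 and 7 higher and 9 and 9 lower. The neutrophil list had 6 and 5 lower then.

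Genes of bone, cartilage and tendon were higher in ZKS cells for 12 of 27 tested and lower for 4 (48 measured, median 1.18). The Hedgehog ligand gene ihha, which acts in the growth of cartilage and scales, was at 221 and 253 CPM in ZKS cells and at 0.15 and 0 CPM in sinusoids (7.51 ± 0.96). Its relative IHH (ENSDARG00000037062) was at 0 in both ZKS libraries against 51.5 and 105 CPM, at least 241-fold lower. The enzyme gene enpp1, which makes the mineralisation inhibitor pyrophosphate, was at 790 and 769 CPM against 33.3 and 4.56 CPM (5.54 ± 0.69). PHEX, also on this list, was at 418 and 333 CPM against 70.2 and 0 CPM (5.27 ± 1.57). Its call ended with no filter, in a fit of the 4 libraries alone, and with edgeR and DESeq2 on recovered reads. ITGA10, a collagen-binding integrin of cartilage counted in the adhesion list and not here, was at 2821 and 2500 CPM against 0.45 and 5.11 CPM (9.46 ± 0.75). The groups did not overlap for ihha, enpp1 and ITGA10, as in 10349 of all 13651 genes tested. The phosphatase ALPL did not pass the test (0.87 ± 0.34, limma adjusted p = 0.0797), though its groups did not overlap (114 and 91.3 CPM against 43.0 and 47.6 CPM). The cartilage proteoglycan acana, whose groups overlapped, did not pass either (-0.01 ± 0.83). Without ZKS replicates 1 and 2 the median log2 change of the list went from 1.18 to 1.52 and 1.01.

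Contractile and mural genes did not move together, with 10 of 32 tested higher and 10 lower (49 measured). PDGFRB, which marks mural and stromal cells, was at 31.0 and 31.6 CPM in ZKS cells and at 1.2 and 3.14 CPM in sinusoids (3.11 ± 0.45), and the tropomyosin gene TPM4 at 112 and 114 CPM against 2.54 and 4.43 CPM. The smooth muscle actin gene acta2 was at 0.22 and 0.2 CPM against 13.5 and 7.02 CPM, and MYLK (ENSDARG00000034801), the kinase that starts smooth muscle contraction, at 18.2 and 10.3 CPM against 453 and 553 CPM. LMOD1 (ENSDARG00000077261), a leiomodin of smooth muscle, was higher, at 20.3 and 15.99 CPM against 0 in both sinusoid libraries, a call that ended without any 1 of the 4 libraries. Of the copies of TAGLN, which binds actin in smooth muscle, 1 (ENSDARG00000045408) was higher (2.11 ± 0.41) and another (ENSDARG00000033466) lower (-2.73 ± 0.51), and both calls ended without either ZKS library, the second also without sinusoid replicate 2. Without ZKS replicates 1 and 2 the list had 3 and 4 higher and 6 and 6 lower.

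Cholesterol synthesis was the list with the highest share of higher calls, 23 of 27 tested (31 measured), with 1 lower and a median of 3.91. SQLE (ENSDARG00000079946), the epoxidase that commits squalene to sterols, was at 874 and 770 CPM in ZKS cells and at 1.12 and 3.39 CPM in sinusoids (7.76 ± 0.70, limma adjusted p = 0.000238). DHCR7, of the last step, was at 505 and 466 CPM against 13.6 and 2.77 CPM (5.76 ± 0.51). In 26 of the 27 genes both ZKS libraries lay above both sinusoid libraries. Over all 13651 genes tested, the groups did not overlap, in either direction, in 10349. The low-density lipoprotein receptor gene ldlra did not pass the test (24.6 and 11.7 CPM against 8.9 and 8.13 CPM). Without sinusoid replicate 1 the list had 22 higher, and without ZKS replicates 1 and 2 13 and 12, each with 1 lower.

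**Figure D4:**
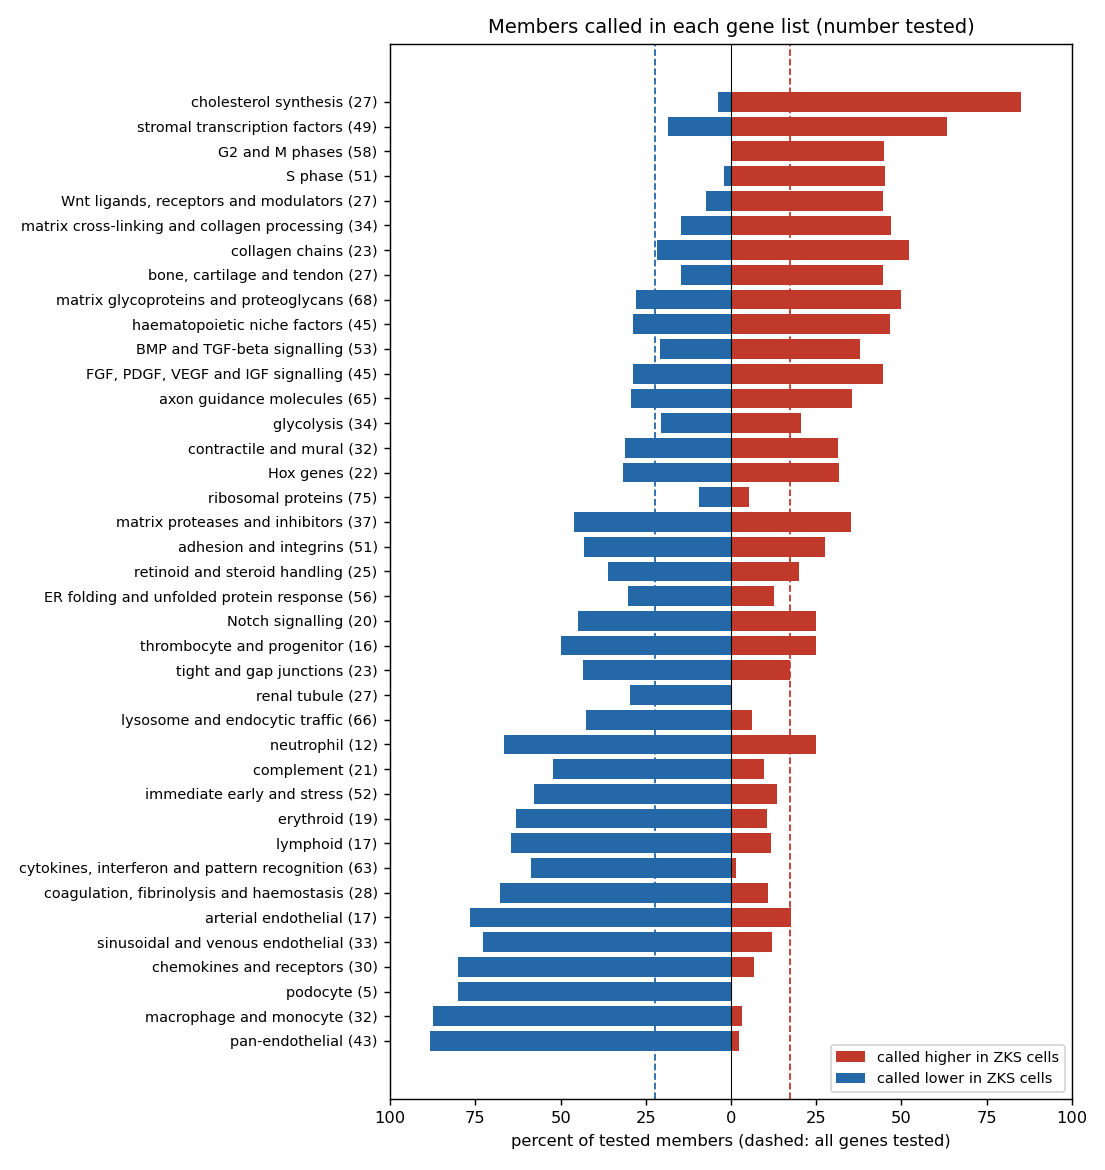
Share of tested members called higher (red, to the right) or lower (blue, to the left) in ZKS cells for 39 gene lists, with the number tested in brackets. The dashed lines mark the 17.4% and 22.2% called over all genes, and cholesterol synthesis and general endothelial genes stand at the ends.

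Cell cycle genes were higher in ZKS cells, against sinusoid libraries that differed widely from each other. In sum the 54 measured S phase genes were at 7867 and 7756 CPM in ZKS cells and at 3184 and 972 CPM in sinusoids, and the 64 measured G2 and M phase genes to 6968 and 6375 CPM against 2925 and 217 CPM. Of 51 tested S phase genes 23 were higher and 1 lower (median 1.72), and of 58 tested G2 and M genes 26 were higher and 0 lower (median 2.68). Sinusoid replicate 1 was above replicate 2 in all 51 and all 58 of them. Without sinusoid replicate 1 the calls were 26 higher and 0 lower in S phase and 46 and 0 in G2 and M. Without sinusoid replicate 2 they were 13 and 0, and 13 and 2. In 49 of the 58 G2 and M genes both ZKS libraries still lay above sinusoid replicate 1. Over all 13651 genes tested, the groups did not overlap, in either direction, in 10349. Leaving out ZKS replicates 1 and 2 left 4 and 3 S phase genes and 2 and 1 G2 and M genes higher. With all libraries kept, the G2 and M genes called higher numbered 13 with edgeR on recovered reads and 17 with no filter.

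TOP2A, the topoisomerase that untangles chromosomes, was at 765 and 635 CPM in ZKS cells and at 132 and 7.63 CPM in sinusoids. All 4 values kept the groups apart (4.09 ± 0.96, limma adjusted p = 0.0134), and the call ended without ZKS replicates 1 and 2 (adjusted p = 0.123 and 0.113). CCNA2, a cyclin, was at 296 and 273 CPM against 234 and 4.06 CPM, and did not pass the test (2.77 ± 1.37, adjusted p = 0.148). GINS4, a part of the replication helicase, was at 47.3 and 48.7 CPM against 2.24 and 0.68 CPM (4.13 ± 0.54), a call that no alternative ended. The oocyte and tubule transcripts of sinusoid replicate 1 moved with these genes, and their part in the result was not tested.

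Inflammatory and chemokine genes were lower in ZKS cells. Of 63 tested cytokine, interferon and pattern recognition genes (77 measured), 37 were lower and 1 higher (median -1.80), and of 30 tested chemokines and receptors (76 measured), 24 were lower and 2 higher (median -2.93). The cytokine gene il1b was at 0 in both ZKS libraries and at 860 and 1139 CPM in sinusoids. SOCS3 (ENSDARG00000025428), an inhibitor of Stat signalling, was at 18.7 and 22.6 CPM against 6947 and 9883 CPM (-8.86 ± 0.36, limma adjusted p = 1.28e-05), and the chemokine receptor CXCR4 (ENSDARG00000041959) at 0 against 173 and 64.6 CPM. No value of these 3 genes in ZKS cells came near the sinusoid level. The interferon-induced gene isg15 did not follow, at 215 and 311 CPM against 42.6 and 115 CPM, and missed the threshold (1.58 ± 0.58, adjusted p = 0.0665). Macrophage genes, 28 of 32 tested lower and 1 higher (55 measured), moved with these lists, MPEG1 (ENSDARG00000043093) being at 0.22 and 0.2 CPM against 145 and 259 CPM. With ZKS replicate 1 or 2 left out, 18 and 18 cytokine genes and 17 and 16 macrophage genes were lower. In the thrombocyte and progenitor list the largest decreases were FLI1 (ENSDARG00000054632), TAL1 (ENSDARG00000019930), GATA2 (ENSDARG00000059327) and LMO2 (ENSDARG00000095019). In sinusoids FLI1 was at 455 and 460 CPM and LMO2 at 43.5 and 43.5 CPM. MYB did not pass the test (0.22 and 0.81 CPM against 16.1 and 1.6 CPM, limma adjusted p = 0.0721). Whether these reads came from blood cells or endothelium was not tested. Of 19 tested erythroid genes 12 were lower and 2 higher (28 measured), and of 17 lymphoid genes 11 were lower and 2 higher (33 measured). Of 16 thrombocyte and progenitor genes 8 were lower and 4 higher (23 measured). The lower calls with ZKS replicate 1 or 2 left out were 7 and 8, 6 and 6, and 6 and 6.

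Among 52 tested immediate early and stress genes, 30 were lower and 7 higher (60 measured, median -1.55). HSPB1, a small heat shock protein, was at 0.22 and 0.4 CPM in ZKS cells and at 580 and 1651 CPM in sinusoids (-9.60 ± 0.68), and SIK1, an inducible kinase, at 6.69 and 5.16 CPM against 758 and 638 CPM. These 2 genes were lower in both ZKS libraries. The AP-1 gene fosl1b was higher, at 41.7 and 50.9 CPM against 0.3 and 0 CPM (5.10 ± 0.50). Both JUNB copies lay within the spread, the first (ENSDARG00000104773) at 2700 and 2635 CPM against 2345 and 2877 CPM. This list had, with ZKS replicate 1 or 2 left out, 23 and 20 lower and 4 and 4 higher.

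Housekeeping groups had few calls or calls on both sides. Of 75 tested ribosomal protein genes (79 measured), 4 were higher and 7 lower, below the shares over all genes, with sinusoid replicate 1 left out 0 and 2, and with sinusoid replicate 2 or either ZKS library left out 0 and 0. Of 34 tested glycolysis genes (42 measured), 7 were higher and 7 lower, and with ZKS replicates 1 and 2 left out 2 and 2 were higher and 3 and 3 lower. ENO1 (ENSDARG00000013750), an enolase, was at 175 and 196 CPM in ZKS cells and at 4.41 and 1.54 CPM in sinusoids (5.38 ± 0.66), while ALDOA (ENSDARG00000011665) did not pass the test (4517 and 4439 CPM against 2167 and 4225 CPM). GAPDH (ENSDARG00000043457) was at 0 in both ZKS libraries and at 264 and 12.8 CPM in sinusoids, the higher value in replicate 1, and its call ended without ZKS replicates 1 and 2 (limma adjusted p = 0.0765 and 0.0776). Of 56 tested genes of protein folding in the endoplasmic reticulum (61 measured), 7 were higher and 17 lower, and without ZKS replicates 1 and 2 3 and 3 were higher and 4 and 3 lower.

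Counts of renal tubule genes moved with single libraries of both groups. Of 27 tested (77 measured), 8 were lower and 0 higher in ZKS cells. Without sinusoid replicate 1, 4 were lower with a median of -0.18, and without sinusoid replicate 2 13 were lower with a median of -3.59. Leaving out ZKS replicate 1 or 2 left 2 and 2 lower. With all libraries kept, a pseudocount of 5 CPM gave 4 lower, no filter 3 and a fit of the 4 libraries alone 4. The scaffold gene pdzk1 was at 0 in both ZKS libraries and at 129 and 2.71 CPM in sinusoids (limma adjusted p = 0.0373, and 0.0618 without sinusoid replicate 1). Its call also ended without either ZKS library, with a pseudocount of 5 CPM, with no filter and in a fit of the 4 libraries alone. AQP1 (ENSDARG00000023713), a water channel that red cells and endothelium also carry, was at 0 against 31.6 and 14.7 CPM, a call that no alternative ended.

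Pairs of gene copies were examined because the zebrafish genome retains many duplicates. Pairs were matched by symbol alone: 1 symbol under 2 identifiers, or symbols that differ only in a last letter a or b. A match of symbols does not show that 2 genes are duplicates, and pairs such as eif5b and eif5a are counted too. Of 911 such pairs with both members tested, 57 (6.26%) had 1 member called higher and the other lower in ZKS cells. In 60 pairs both were higher, in 106 both lower, in 371 only 1 was called and in 317 neither. Over all genes tested 17.4% were called higher and 22.2% lower, so some pairs of unrelated genes would have opposite calls too. Whether matched pairs had more of them than unrelated genes was not tested. The authors' counting could have split reads between near-identical copies, so these values are uncertain. The fibronectin gene FN1 had 1 copy (ENSDARG00000019815) at 290 and 308 CPM in ZKS cells against 10.5 and 7.02 CPM (4.68 ± 0.30), and another (ENSDARG00000006526) at 2.27 and 1.62 CPM against 48.6 and 32.3 CPM (-3.98 ± 0.28). NRP2 had the widest split, its second copy (ENSDARG00000038446) being at 1.94 and 0.61 CPM against 36.5 and 60.7 CPM (-4.61 ± 0.54) where the first rose by 7.76 ± 0.38. The copies of these 2 genes were thus higher in different populations, though both FN1 copies were above the floor in both populations.

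The membrane protease MMP14 had a copy (ENSDARG00000002235) at 145 and 122 CPM in ZKS cells against 0.15 and 0.62 CPM and a second (ENSDARG00000008388) at 31.8 and 21.5 CPM against 152 and 172 CPM. The planar polarity cadherin genes dchs1a and dchs1b changed by 5.84 ± 0.48 and -3.45 ± 0.51, and the kinase copies PDK2, which restrain pyruvate entry into mitochondria, by 2.098 ± 0.418 (ENSDARG00000020876) and -6.34 ± 0.40 (ENSDARG00000059054). The tetraspanin genes cd9b and cd9a changed by 7.02 ± 0.87 and -1.37 ± 0.36. The call of the lower copy cd9a ended without ZKS replicate 1, ZKS replicate 2 or sinusoid replicate 2, that of the higher PDK2 copy without ZKS replicate 1 or 2.

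**Figure D5:**
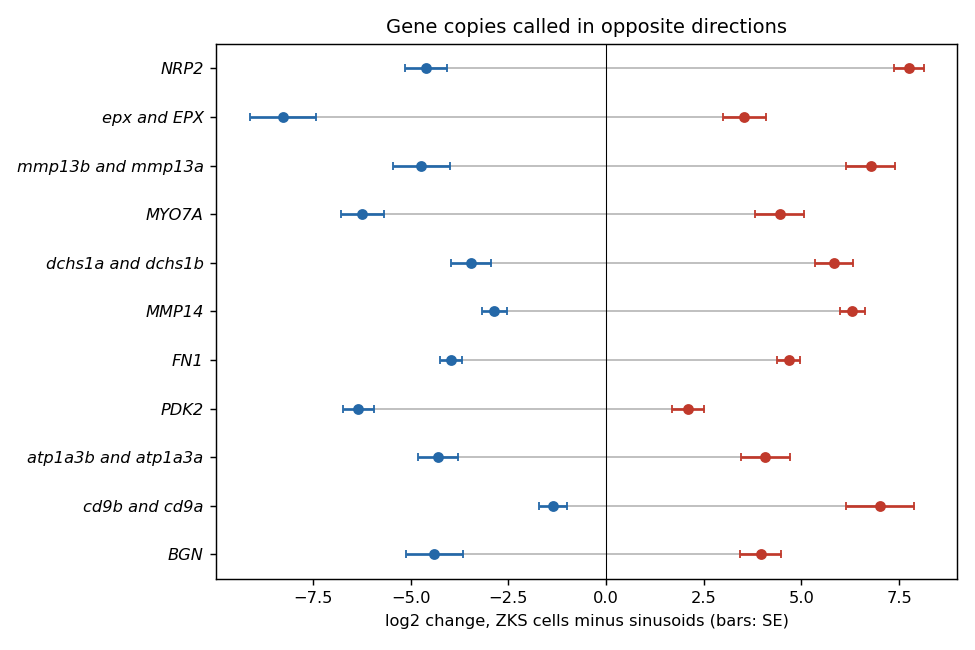
Log2 changes (ZKS cells minus sinusoids, bars are SE) of the 11 pairs matched by symbol, with opposite calls, that lie farthest apart. The higher member is in red and the lower member in blue. The NRP2 copies lie at 7.76 and -4.61 and the FN1 copies at 4.68 and -3.98.

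Axon guidance, retinoid, adhesion and junction genes had calls on both sides. Of 65 tested axon guidance genes (91 measured), 23 were higher and 19 lower, with a median of -0.08 that was 0.14 with CPM as deposited. SEMA3C, a secreted repellent, was at 315 and 248 CPM in ZKS cells against 1.2 and 0 CPM (7.32 ± 0.42), and its relative SEMA3D at 1.08 and 0.2 CPM against 499 and 353 CPM (-8.15 ± 0.53). These secreted ligands of 1 family thus lay in different populations. Of 25 tested retinoid and steroid genes (46 measured), 5 were higher and 9 lower. ALDH1A2, which makes retinoic acid, was at 0 in both ZKS libraries against 14.7 and 14.8 CPM, and lratb.1, which stores retinol as ester, at 119 and 163 CPM against 0.3 and 0 CPM. The retinoic acid breaking enzyme CYP26B1 was at 815 and 646 CPM against 130 and 250 CPM and did not pass the test (1.71 ± 1.00, limma adjusted p = 0.214). Of 51 tested adhesion genes (73 measured), 14 were higher and 22 lower, ITGA5, the fibronectin receptor chain, being at 0.65 and 1.62 CPM against 213 and 237 CPM. The connexin genes gja4 and GJA5 (ENSDARG00000040065) of vessels were at 0 in both ZKS libraries, and GJA1 did not pass the test (0.71 ± 0.33). Of 23 tested junction genes (51 measured), 4 were higher and 10 lower. Leaving out ZKS replicate 1 or 2, the lower calls were 11 and 13 for axon guidance, 3 and 3 for retinoid and steroid, 14 and 14 for adhesion and 4 and 5 for junction genes, and the higher calls 12 and 13, 5 and 5, 7 and 8, and 3 and 3. Of 5 tested podocyte genes (16 measured), 4 were lower and 0 higher, and 1 and 2 were lower without ZKS replicates 1 and 2.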

How the data were processed

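RNA of sorted kidney cells was amplified by Quartz-seq (oligo-dT priming, tailing and PCR), with no molecular identifiers described, per the labels' protocols. HISAT2 2.1.0, Subread 1.6.4 and build GRCz11 are named in the submitters' processing notes, without order or settings. The authors deposited CPM for 32047 gene identifiers per library. The other 6 libraries, of gata2a+ runx1+ cells, were not used here.

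Depth was recovered from the CPM step that 1 read makes, and with it 100% of values up to 500 reads were whole to within 0.1 read. The step of ZKS replicate 2, 0.101 CPM, is close to the rounding of the file, so its depth, its floor and the tests on recovered reads are less certain. A floor of 3 reads was 0.304 to 0.324 CPM in ZKS cells and 0.185 to 0.224 CPM in sinusoids. Floors cover counting error only, and PCR reads are not independent molecules. Of recovered counts above 0, 54.3% to 60.3% were even in the 4 libraries, so the tests on recovered reads may understate error.

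Genes at 1 CPM or more in 2 of the 4 libraries were tested with limma 3.58.1 (trended, R 4.3.3) on log2(CPM + 1), with TMM factors from edgeR 4.0.16, in 1 fit of the 6 ZKS, pericyte and sinusoid libraries (3 residual degrees of freedom), two-sided, Benjamini-Hochberg adjusted. The fit was tested on simulated data. Columns of other series numbered 0. Symbols matched 28978 identifiers. Copies sharing a symbol carry their identifier. No coordinates or sequences are given.

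The comparison, lists and markers were chosen with earlier results of these data known. Genes were named by a rule: the 15 largest changes each way, up to 8 per list, cell type markers, 12 copy pairs, and stromal factors at 10 CPM or more. Those named otherwise are marked, and a few the rule names are not reported here. The oocyte set was chosen after the values were seen. 13 alternatives were run, DESeq2 1.42.0 and edgeR on recovered reads among them.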

Additional observations from a re-analysis of the deposited data

How the results depend on the processing

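The comparison gave 5402 calls, 2369 higher and 3033 lower. Leaving out 1 ZKS or sinusoid library gave 1841 to 4893 calls, 764 to 2269 higher and 1077 to 2624 lower, the low ends with a ZKS library left out, where the lone sample is assumed to vary like the other groups. Of the 1899 and 1841 calls without ZKS replicates 1 and 2, 1897 and 1840 were also calls with all libraries. Every other alternative stayed within 1.5 times: 3966 calls with a filter of 10 CPM, 4343 with no filter, 4528 with edgeR and 5508 with DESeq2 on recovered reads, of which 4396 and 4976 were shared. No label says what the replicate numbers mark. Deviations of same-numbered libraries correlated at 0.00796 to 0.0722 across genes. With 1 deviation per group, this cannot tell whether the numbers pair the samples. A replicate block gave 5392 calls. Among list counts of 5 or more, those that moved by over 1.5 times with all libraries kept were the renal tubule and G2 and M counts given above and, with no filter, the lower calls of complement (7 against 11), BMP and TGF-beta (7 against 11), Hox (4 against 7), ribosomal protein (2 against 7) and endoplasmic reticulum folding genes (11 against 17) and the higher calls of the last (4 against 7). A filter of 10 CPM, which tests fewer genes, also moved counts, among them stromal transcription factors (19 higher against 31) and macrophage genes (17 lower against 28). Of 268 called genes named by the rule, 194 kept their call in every one of the 13 alternatives that tested them, and 0 reversed. Some of these, acta2 among them, were not tested in all 13. Of the 268, 68 and 65 lost their call without ZKS replicates 1 and 2, and 18 and 25 without sinusoid replicates 1 and 2. With 2 libraries a group, a miss of the threshold does not show equal levels. Low genes are limited by the floor of 3 reads.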
